A study of Mus musculus with 68 samples.

Results

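The step from the late 2-cell to the 8-cell mouse embryo was described with 12 of the 68 RNA libraries of a study of the gene Ezhip. All 6 libraries of 8-cell embryos were set against all 6 of late 2-cell embryos, chosen by their stage label alone and with the genotypes pooled. The WT libraries were also compared alone. The late 2-cell embryos gave 2 WT, 2 Ezhip mHet and 2 Ezhip mKO libraries, and the 8-cell embryos gave 2 WT, 1 Ezhip mHet and 3 Ezhip mKO libraries. Ezhip lies on the X chromosome and encodes an inhibitor of the Polycomb complex PRC2, which places the repressive histone mark H3K27me3. The series deleted Ezhip in oocytes or embryos to study how this mark passes between generations. The labels do not spell out mHet and mKO, which are used here as written. Neither the deleted part of the gene nor the driver of the deletion, the strain or the number of embryos in a library is given in the sources used here. Text shared by all samples describes 8-cell embryos cultured with the EZH2 inhibitor GSK343 or with DMSO, and no label of these 12 libraries names either.

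The mouse embryo starts with RNA and protein stored by the oocyte. Its own genome is switched on in earnest at the late 2-cell stage, when a burst of short-lived genes such as the Zscan4 cluster is transcribed while stored maternal RNA is being degraded. By the 8-cell stage the embryo depends on its own transcripts, builds ribosomes and mitochondrial enzymes, flattens its cells against each other in compaction and polarises them ahead of the first choice of cell fate, between trophectoderm and inner cell mass.

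Expression was given in FPKM (fragments per kilobase of transcript, scaled to the mapped reads of the library), so a level is per transcript length and can be compared between genes. Both tables named 14055 genes in common. After removal of the ribosomal RNA gene Rn45s and rescaling of every library to the same total, 10829 genes reached 1 FPKM in at least 2 of the 12 libraries and were kept. Every difference below is the mean of log2(FPKM + 1) over the 8-cell libraries minus that over the late 2-cell libraries, which understates the change of low genes. Since the authors normalized the tables apart, no test was run across them: a gene was called higher or lower only where this difference was at least 2 (4-fold on that scale) and the 6 libraries of one stage did not overlap the 6 of the other. Levels are given as the median of the 6 libraries of a stage with the lowest and highest in square brackets, the late 2-cell level first, and the difference on the log2 scale follows in parentheses. A lower level in the 8-cell libraries is a smaller share of the RNA, and a smaller share cannot be told apart from less RNA per embryo. The libraries of a stage resembled each other (Spearman correlation across genes 0.915 to 0.960 within the late 2-cell and 0.938 to 0.972 within the 8-cell libraries) more than those of the other stage (0.632 to 0.746). Markers of the earlier stages followed the stage labels. At the 8-cell stage 6 of 8 oocyte and early cleavage markers and 6 of 7 late 2-cell markers were lower, against 14.8% of all genes. Markers of the compacting 8-cell embryo did so only in part. Of these 8, 3 were higher (Pou5f1, Nanog and Klf5) and 1 lower (Upp1), against 2.2% and 14.8% of all genes. In WT alone 2 were higher. Of 16 follicle cell markers 5 were named in the tables (summed level 23.8 to 39.5 FPKM in the late 2-cell and 4.62 to 9.72 in the 8-cell libraries), of 7 sperm markers none, of 7 blood markers 3 (11.4 to 56.2 and 3.41 to 14.7 FPKM, mainly the hemoglobin genes Hba-a1 and Hba-a2) and of 7 connective tissue markers 2 (0 to 1.70 and 0 to 0.105 FPKM). The follicle sum was mainly Amhr2, the receptor gene of anti-Müllerian hormone, while Tnfaip6, a gene of the expanding cumulus, was at 0 in all 8-cell libraries. Their part in the results was not tested.

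The share of the transcriptome that differed by this rule was large and went mainly downward. Of the 10829 genes, 1846 (17.0%) were called, 238 (2.2%) higher and 1608 (14.8%) lower at the 8-cell stage. How the calls divide between the directions depends on the scaling. The median gene differed by -0.75 on the log2 scale with equal totals, by -0.32 with the values as deposited and by -0.18 with median ratio scaling, under which 675 genes (6.23%) were higher and 759 (7.01%) lower. As deposited, 546 (5.04%) were higher and 917 (8.47%) lower. The 238 higher genes and 759 of the lower ones (7.01% of genes) passed under all 3 scalings, 9.21% of genes together. Both other scalings move the differences upward, so that all 238 passed follows from this and is no measure of stability. The 759 are as many as were lower under median ratio scaling. Differences are therefore also read against the median gene. The WT libraries alone gave 287 higher (2.65%) and 1715 lower (15.8%) genes (18.5% together), 1663 of the 1846 pooled calls among them. As a measure of how far 2 separately normalized tables can differ at one stage, the 2 tables of E3.5 blastocysts were compared. By the same rule 22 of 11068 genes differed (0.199%, and 0.596% with WT libraries alone), 4 of the 1415 stage-called genes measured there among them. These tables held 6 and 15 libraries (2 and 5 of WT), so the rule on overlap was harder to pass than between the stages. Without it 60 genes passed. The late 2-cell table listed no gene at 0 in all 6 libraries, whereas 573 genes of the 8-cell table were at 0 throughout. A gene at 0 in all late 2-cell libraries thus could not enter the comparison, and the count of higher genes is a count of what could be seen. The count of lower genes is limited too, as 1086 names stood in the late 2-cell table alone, 120 of them at a mean of 10 FPKM or more. Just inside the threshold lay Gm6251 (2.000) and Lrp6 (-2.001), and just outside it Eif3d (1.999) and Med1 (-1.9997).

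**Figure D1:**
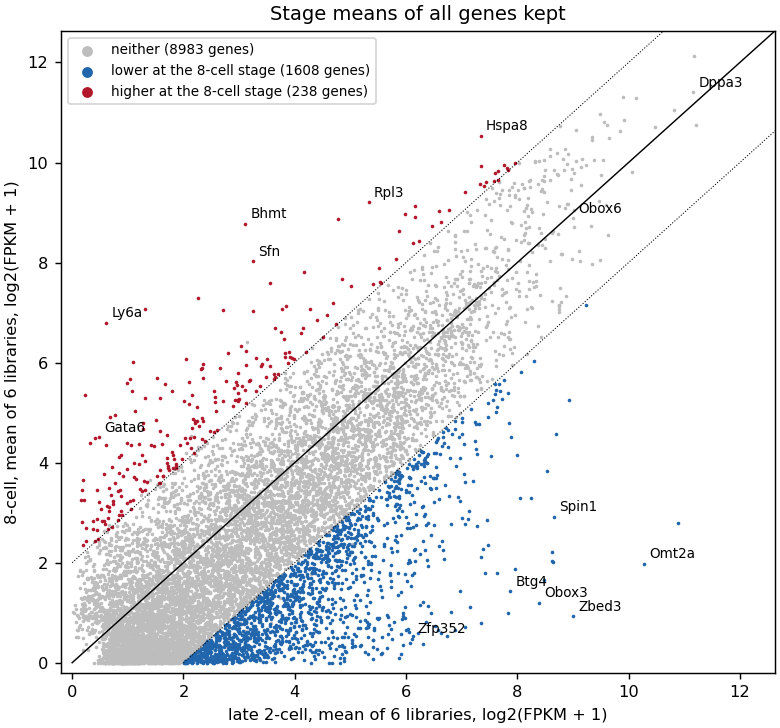
Each point is 1 of 10829 genes, with its mean log2(FPKM + 1) over the 6 late 2-cell libraries on the x axis and over the 6 8-cell libraries on the y axis; the solid line marks equal levels and the dotted lines a difference of 2. The 238 higher genes (red) lie above the upper dotted line and the 1608 lower genes (blue) below the lower one, with Omt2a and Zbed3 among those farthest from equality.

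Genes of the transient late 2-cell programme had the lowest median of the 44 gene lists. Of 35 measured genes of this list, 26 were lower at the 8-cell stage and none was higher (22 lower and 1 higher, Fgf3, under median ratio scaling), with a median difference of -3.24 against -0.75 for all genes. Zfp352, a zinc finger gene of the early embryo, stood at 57.6 FPKM [36.4 to 155] in late 2-cell embryos and 0.319 FPKM [0 to 1.04] in 8-cell embryos (-5.63). BB287469, a model from the Eif1a-like gene family, went from 81.6 FPKM [27.5 to 199] to 0.369 FPKM [0.0515 to 0.453] (-5.93). The ret finger protein-like gene Rfpl4b measured 66.1 FPKM [23.0 to 93.0] and then 0.0723 FPKM [0 to 0.420] (-5.74). These transcripts were thus at or near 0 in every 8-cell library. Zscan4c and Zscan4d, which encode SCAN and zinc finger proteins that act at telomeres, stood at 9.29 FPKM [6.29 to 17.9] and 11.9 FPKM [5.97 to 25.1] and then at no more than 0.5258 and 0.828 FPKM (-3.24 and -3.34). The Zscan4 genes and the Eif1a-like models (Gm4027, Gm8300, Gm5662) are near-identical copies. Reads may have been divided among them and each single value is uncertain. Not every gene of the list was lower. Tdpoz2, a TD and POZ domain gene, stood at 13.5 FPKM [8.45 to 22.0] and 11.7 FPKM [4.31 to 22.9] (-0.32; 0.47 under median ratio scaling). Sp110, a nuclear body gene, stood at 107 FPKM [84.6 to 141] and 101 FPKM [84.2 to 120.0] (-0.09; 0.76). In both the stages overlapped and the sign changed with the scaling.

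The promoters of 3 lower genes and of Bhmt, a gene higher at the 8-cell stage, are shown because they hold copies of short motifs. They cover the 250 bases before the RefSeq start site (build GRCm38.p6), 5′ to 3′ on the gene's strand, with matches in capitals on either strand. GGATTA is the core bound by OBOX and other paired-like homeodomains. AAGGTCA is the core bound by the orphan nuclear receptors NR5A2 and ESRRB. TATAAA is a TATA box.
Zfp352, chr4:90218570-90218819, plus strand: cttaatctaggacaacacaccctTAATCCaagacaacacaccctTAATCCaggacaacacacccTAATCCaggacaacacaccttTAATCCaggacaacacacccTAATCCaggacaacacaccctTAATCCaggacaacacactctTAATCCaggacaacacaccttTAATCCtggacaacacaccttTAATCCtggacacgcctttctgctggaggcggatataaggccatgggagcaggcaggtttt
BB287469, chr12:87816327-87816576, plus strand: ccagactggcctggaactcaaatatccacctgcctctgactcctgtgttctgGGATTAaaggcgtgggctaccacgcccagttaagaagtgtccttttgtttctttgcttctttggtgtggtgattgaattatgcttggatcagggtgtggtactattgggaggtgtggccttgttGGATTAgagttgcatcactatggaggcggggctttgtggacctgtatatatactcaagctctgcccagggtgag
Zscan4d, chr7:11166149-11166398, minus strand: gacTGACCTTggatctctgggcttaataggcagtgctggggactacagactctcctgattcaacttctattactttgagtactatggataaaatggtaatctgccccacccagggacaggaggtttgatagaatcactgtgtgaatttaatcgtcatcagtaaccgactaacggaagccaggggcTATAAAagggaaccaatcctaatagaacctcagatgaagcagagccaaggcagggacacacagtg
Bhmt, chr13:93637759-93638008, minus strand: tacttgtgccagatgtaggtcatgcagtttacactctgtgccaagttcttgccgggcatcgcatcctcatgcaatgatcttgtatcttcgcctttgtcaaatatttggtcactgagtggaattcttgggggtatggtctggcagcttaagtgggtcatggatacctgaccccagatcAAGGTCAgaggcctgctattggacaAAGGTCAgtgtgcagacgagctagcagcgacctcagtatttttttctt
The Zfp352 stretch held 9 GGATTA matches spaced 20 to 21 bases apart in a tandem repeat, and no other of the 32851 RefSeq promoters of the table held more than 4. BB287469 held 2 GGATTA and Bhmt 2 AAGGTCA matches, while Zscan4d held 1 AAGGTCA and 1 TATAAA. Among 25 promoters matched to the late 2-cell list, 8 held GGATTA, 4 AAGGTCA and 7 TATAAA. Over windows of 300 bases (250 before and 50 after the start, both strands), GGATTA was in 6.15% of the promoters of all kept genes and 7.06% of all RefSeq promoters. It was in 6.57% of those of the lower genes and in 7.30% of those of the higher genes. For genes under 1 FPKM in oocytes it was in 12.6% of the promoters of lower genes (36 of 286) and 10.3% of those of higher genes (8 of 78). A larger share was thus not particular to the lower genes. AAGGTCA was in 3.20% of all kept, 3.46% of lower and 5.15% of higher promoters, and TATAAA in 7.48%, 9.19% and 7.73%. RefSeq promoters were found for 80.1% of the kept genes, and a match is a description of letters and not a site in use.

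Transcription factors of genome activation were called in both directions, and as a list they lay at the median of all genes. The Obox genes encode homeodomain proteins of the oocyte and early embryo, and Obox1, Obox3 and Obox5 were lower while Obox6 was not. Obox3 stood at 337 FPKM [269 to 430.2] in late 2-cell and 1.77 FPKM [0.00397 to 3.14] in 8-cell embryos (-7.19). Obox5 stood at 111 FPKM [89.4 to 126] and 1.24 FPKM [0.0903 to 1.67] (-5.79). Obox6 stood at 486 FPKM [425.4 to 718] and 507 FPKM [308 to 614], with overlapping libraries (-0.11; 0.75 under median ratio scaling). Obox6 was thus still one of the abundant transcripts of the 8-cell embryo. Of 20 measured genes of the list, 6 were lower (30%, against 14.8% of all genes) and 1 higher (5%, against 2.2%). Their median was that of all genes (-0.75). Under median ratio scaling 4 were lower and 2 higher. The higher gene, Klf5, did not pass in the WT libraries alone, in which 7 were lower and none higher. Among the lower ones was Taf3, a core promoter factor (32.8 FPKM [29.2 to 38.4] and 2.15 FPKM [1.72 to 2.87]; -3.41). Others were the TATA-binding protein gene Tbp (81.5 FPKM [69.1 to 101] and 14.9 FPKM [9.10 to 23.6]; -2.38) and Klf17 (209.9 FPKM [170.4 to 268] and 47.7 FPKM [22.8 to 90.0]; -2.10). Tbp and Klf17 fell short of the rule under median ratio scaling. The nuclear receptor gene Nr5a2 stood at 29.2 FPKM [20.4 to 38.4] and 25.6 FPKM [12.9 to 35.9] (-0.32; 0.51 under median ratio scaling), with overlapping libraries. In the list of RNA polymerase II subunits and general factors 7 of 32 were lower and none higher. Gtf2a1, a subunit of TFIIA, went from 84.4 FPKM [65.8 to 126] to 5.45 FPKM [2.23 to 7.02] (-3.89) and was the only one of the 7 to pass under median ratio scaling. Polr2e stood at 134 FPKM [113 to 145] and 134 FPKM [89.3 to 178].

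**Figure D2:**
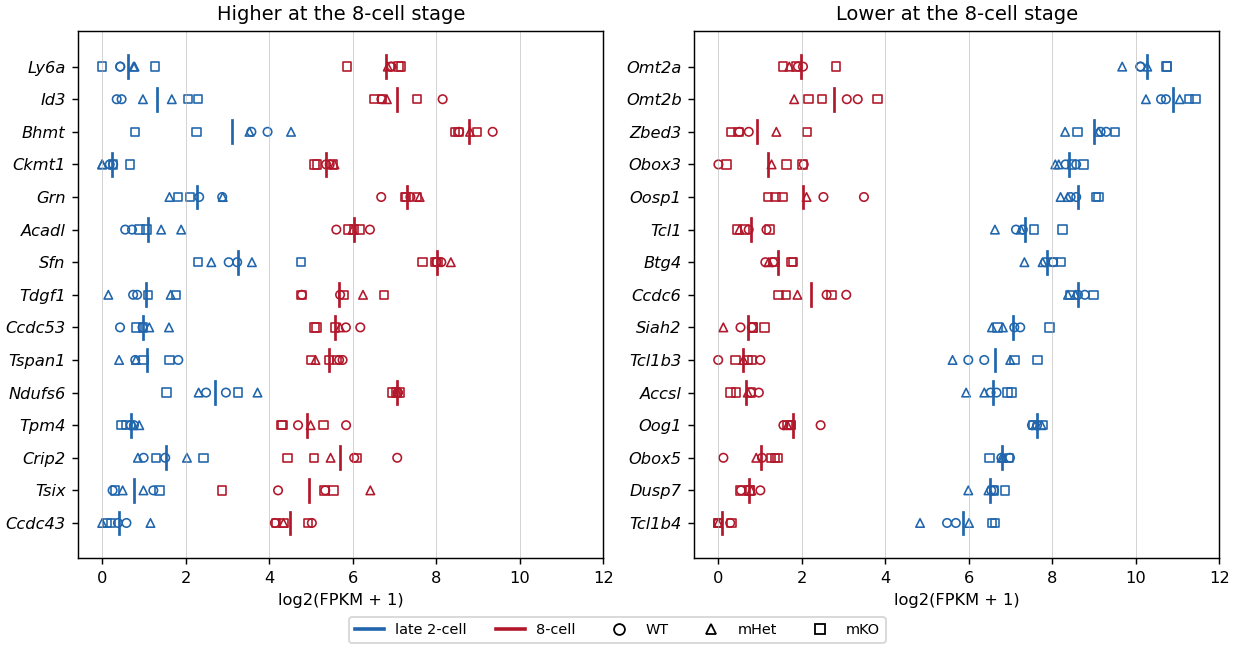
Every library is a point for the 15 named genes with the largest difference in each direction; the x axis is log2(FPKM + 1), blue marks late 2-cell and red 8-cell libraries, shapes mark genotypes, and bars mark the stage means. In all 30 genes the 6 libraries of one stage lie clear of the 6 of the other, by the rule that chose them.

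Many transcripts that the oocyte stores were lower at the 8-cell stage. The largest differences of all were in Omt2a and Omt2b, oocyte maturation genes. Omt2a stood at 1174 FPKM [817 to 1727] in late 2-cell embryos and at 2.72 FPKM [1.93 to 6.07] in 8-cell embryos (-8.30). Omt2b stood at 1907 FPKM [1213 to 2758] and 6.04 FPKM [2.53 to 13.1] (-8.11). Both had been as abundant in WT oocytes, at means of 885 and 1795 FPKM, and in WT 1-cell embryos, at 1462 and 2920.0 FPKM (n = 2 libraries each). Other stored RNAs had declined before the late 2-cell stage. The zona pellucida genes Zp1 and Zp2, for the coat of the egg, had means of 356 and 1157 FPKM in oocytes. They stood at 10.1 FPKM [7.27 to 12.7] and 20.3 FPKM [14.6 to 26.8] at the late 2-cell stage and 0.524 FPKM [0.319 to 0.848] and 1.47 FPKM [0.527 to 2.85] at the 8-cell stage (-2.85 and -3.16). Of 7 measured zona and secreted factor genes 6 were lower, among them the growth factor gene Gdf9 (-3.66). The growth factor gene Bmp15 stood at 85.2 FPKM [53.8 to 104] and 1.21 FPKM [0.481 to 2.60] (-5.10). The oocyte-secreted protein gene Oosp1 stood at 363 FPKM [293 to 550.0] and 2.63 FPKM [1.29 to 10.2] (-6.58). Zp3 was the exception, at 67.5 FPKM [55.4 to 93.1] and 30.2 FPKM [19.0 to 34.1] (-1.30).

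The subcortical maternal complex is a protein assembly under the membrane of the egg that is needed for the first cleavages. A list of 17 genes was read for it, Ube2d3 and Uhrf1 among them, and their membership in the complex was not checked. Of these 17 genes 14 were lower (82.4%, against 14.8% of all genes) and 1 was higher. Under median ratio scaling 8 were lower and 1 higher. The median of the list was -2.68. Zbed3 stood at 561 FPKM [316 to 723] and 0.542 FPKM [0.233 to 3.38] (-8.07). Ooep stood at 56.4 FPKM [38.7 to 79.3] and 2.74 FPKM [0.731 to 4.46] (-4.07), and Nlrp14 at 45.3 FPKM [32.9 to 61.4] and 1.78 FPKM [1.12 to 2.72] (-4.09). Khdc3, which encodes the complex member FILIA, went the other way, from 3.91 FPKM [2.42 to 6.47] to 55.2 FPKM [51.1 to 77.8] (3.55). Its WT mean was 189 FPKM in oocytes, 8.67 in 1-cell embryos and 172 in the first table of E3.5 blastocysts, so it was low at the 1-cell and late 2-cell stages and higher before and after. Padi6, the peptidylarginine deiminase of the complex, stood at 25.5 FPKM [20.7 to 30.8] and 8.22 FPKM [4.90 to 10.8] and fell short of the rule (-1.64).

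Genes for storing and destroying maternal RNA were themselves among those that were lower, 12 of 26, with none higher (9 under median ratio scaling; median -1.74). Btg4, which brings the CCR4-NOT deadenylase to maternal RNAs, stood at 243 FPKM [160.4 to 296] and 1.52 FPKM [1.19 to 2.48] (-6.44). Cnot6l, a catalytic subunit of that deadenylase, stood at 16.1 FPKM [11.5 to 21.0] and 0.556 FPKM [0.320 to 1.93] (-3.20). The decapping enzyme gene Dcp2 differed by -3.03, the eIF4E-binding factor Eif4enif1 by -3.70 and the RNA-binding protein Igf2bp3 by -3.52. Its relative Igf2bp2 stood at 14.8 FPKM [9.79 to 23.0] and 16.2 FPKM [14.0 to 24.7] (0.21), with overlapping libraries. Among 28 meiotic and egg-cycle genes 15 were lower and none higher (13 under median ratio scaling; median -2.50). Spin1, a chromatin reader of the egg, went from 428 FPKM [329.5 to 456] to 8.28 FPKM [2.22 to 10.4] (-5.74). Bcl2l10, a BCL2-related gene of the egg, went from 78.2 FPKM [68.4 to 113] to 1.09 FPKM [0.748 to 2.05] (-5.25). The Tcl1 family, cofactors of the kinase AKT encoded in a cluster, went together. Tcl1 stood at 154 FPKM [97.9 to 302] and 0.613 FPKM [0.363 to 1.34] (-6.57). Tcl1b2, Tcl1b3 and Tcl1b4 differed by -5.59, -6.03 and -5.77. The mitotic cyclin gene Ccnb1 stood at 336 FPKM [301 to 383] and 392 FPKM [308 to 486] (0.18), with overlapping libraries. The Oog and Prame-like genes split, with 4 of 13 lower and 1 higher. Oog1 stood at 195 FPKM [182 to 216] and 2.24 FPKM [1.95 to 4.48] (-5.83). Pramel5 was the higher one, at 22.3 FPKM [15.8 to 26.4] and 89.2 FPKM [71.8 to 115] (2.01). Reads of these multi-copy families may be divided among copies.

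The genes called at this step were also divided by their level in WT oocytes. Of the 1608, 921 (57.3%) had a WT mean of at least 5 FPKM in oocytes and 312 (19.4%) one under 1 FPKM, against 42.1% and 30.4% of all kept genes. The 312 genes under 1 FPKM in oocytes had a median level of 0.148 FPKM there, 0.222 in 1-cell embryos, 11.4 at the late 2-cell stage, 0.639 at the 8-cell stage and 0.561 in the first E3.5 table. B020004C17Rik was the extreme of this kind. It stood at 338 FPKM [290.4 to 552] in late 2-cell embryos and 2.63 FPKM [0.5678 to 4.77] in 8-cell embryos (-6.82). It was listed at 0 in the WT libraries of oocytes, 1-cell embryos and E3.5 blastocysts. Of the 238 higher genes 109 (45.8%) were at 5 FPKM or more in oocytes and 81 (34.0%) under 1 FPKM. The 109 had medians of 21.6 FPKM in oocytes, 13.1 in 1-cell embryos, 8.37 at the late 2-cell stage, 59.6 at the 8-cell stage and 65.5 at E3.5. Since the oocyte level and the stage difference chose these genes, a late 2-cell median above or below those of oocytes and 8-cell embryos follows in large part from the choice. The 1-cell and E3.5 levels were not used in it. In the first E3.5 table the WT level was nearer to the 8-cell than to the late 2-cell level for 187 (78.6%) of the 238 higher and 1349 (83.9%) of the 1608 lower genes, and for 66.1% of all kept genes. These tables were normalized apart as well, and the levels are set side by side without a test.

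**Figure D3:**
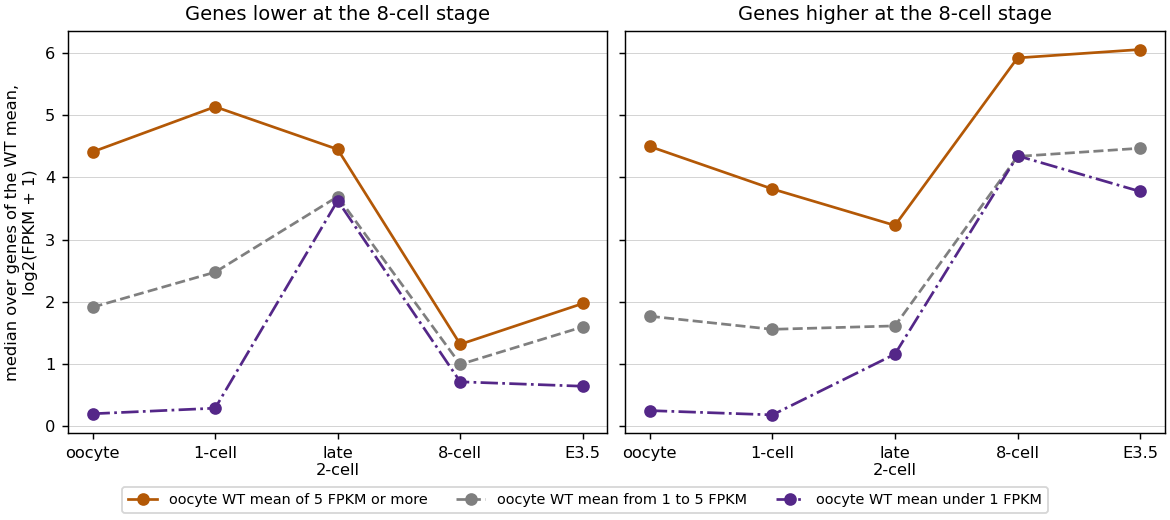
Medians over genes of the WT mean, as log2(FPKM + 1), at 5 stages (x axis) for genes lower (left) and higher (right) at the 8-cell stage, divided by their level in WT oocytes. Lower genes under 1 FPKM in oocytes have a median of 11.4 FPKM at the late 2-cell stage, and higher genes at 5 FPKM or more in oocytes one of 8.37 FPKM. The choice of genes fixes their order between oocytes, late 2-cell and 8-cell embryos in large part.

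Several of the genes with the largest positive differences are described here by what they encode. Bhmt, betaine-homocysteine methyltransferase, which returns homocysteine to methionine, stood at 10.7 FPKM [0.729 to 22.0] in late 2-cell and 411 FPKM [348 to 653] in 8-cell embryos (5.67). Its WT mean was 0.135 FPKM in oocytes and 0.0372 in 1-cell embryos. Ly6a, the cell-surface antigen known as Sca-1, went from 0.516 FPKM [0 to 1.40] to 120.1 FPKM [57.0 to 142] (6.19). Id3, an inhibitor of helix-loop-helix factors and a target of BMP signalling, went from 1.57 FPKM [0.273 to 3.92] to 107 FPKM [89.8 to 284] (5.77). Mitochondrial creatine kinase (Ckmt1) stood at 0.166 FPKM [0 to 0.594] and 41.4 FPKM [33.0 to 46.3] (5.13). The creatine transporter gene Slc6a8 stood at 1.19 FPKM [0.390 to 2.03] and 22.3 FPKM [9.55 to 26.6] (3.29). Acadl, an enzyme of fatty acid oxidation, went from 0.977 FPKM [0.4661 to 2.71] to 63.7 FPKM [47.8 to 84.2] (4.93). Gsto1, a glutathione transferase, went from 11.1 FPKM [5.93 to 18.3] to 160.0 FPKM [127 to 340.0] (4.03). Stratifin (Sfn), a 14-3-3 protein of epithelia, stood at 7.79 FPKM [3.89 to 26.1] and 258 FPKM [203 to 325] (4.78). The late 2-cell libraries of Bhmt, Sfn and Gsto1 spread widely, but none came near the lowest 8-cell library.

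Ribosomal protein genes formed the group with the highest median. All 78 measured genes had positive differences (0.67 to 3.88; median 1.43, and 2.30 under median ratio scaling), the 8-cell libraries lay above all late 2-cell ones in 74 of them (10.5% of all genes lay so, and 44.9% had all 8-cell libraries below), and 11 passed the size rule (60 under median ratio scaling), with none lower. Rpl3 stood at 42.0 FPKM [17.6 to 79.1] and 562 FPKM [532 to 746] (3.88). Rpl7a stood at 68.4 FPKM [53.1 to 98.9] and 453 FPKM [424 to 582] (2.76), and Rps18 at 179 FPKM [114 to 202] and 766 FPKM [643 to 887] (2.24). The smallest difference was that of Rps26, at 643 FPKM [520.4 to 951] and 1034 FPKM [925 to 1250.4] (0.67). The summed level of the list was 19662 to 29639 FPKM in late 2-cell and 54005 to 79774 FPKM in 8-cell libraries, so it takes a large share of the equal totals. Ribosomal protein genes have many processed pseudogenes that may share their reads. Of 39 genes of nucleolar ribosome assembly 1 was lower and none higher (median -0.17, and 0.67 under median ratio scaling). Npm1, the nucleolar phosphoprotein gene, stood at 743 FPKM [591 to 784] and 1885 FPKM [1802 to 2366] (1.47), without overlap but short of the rule. Polr1e, an RNA polymerase I subunit, stood at 56.0 FPKM [43.5 to 66.6] and 12.8 FPKM [9.07 to 17.6] (-2.06), short of the rule under median ratio scaling. Translation initiation genes had a median of 0.54 with 2 of 37 lower and none higher, but 1 lower and 6 higher under median ratio scaling (median 1.39). The 2 were Eif4e3, at 29.8 FPKM [23.2 to 39.0] and 0.324 FPKM [0.0980 to 0.935] (-4.44), and Eif1b (-2.02), which did not pass in WT alone or under median ratio scaling.

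Of the respiratory chain genes 10 of 75 were higher (13.3%, against 2.2% of all genes) and none was lower (against 14.8%). Under median ratio scaling 28 were higher. Of the 75, 72 lay above the median gene (median 0.76). The complex I gene Ndufs6 stood at 5.71 FPKM [1.91 to 12.2] and 133 FPKM [122 to 138] (4.34). Ndufa5, of the same complex, stood at 16.6 FPKM [4.91 to 22.6] and 98.7 FPKM [85.6 to 104] (2.85), and Ndufa3 differed by 2.80. Uqcrb, of the cytochrome bc1 complex, went from 61.7 FPKM [49.3 to 148] to 608 FPKM [405 to 721] (2.97). The complex IV genes Cox5b and Cox6a1 each differed by -0.01 (0.84 and 0.85 under median ratio scaling), with overlapping libraries. Genes of glycolysis and pyruvate use had 8 of 20 called lower (40%) and 1 higher (5%), the pyruvate dehydrogenase gene Pdha1. Under median ratio scaling 5 were lower and 3 higher. The median of the list was -0.97, against -0.75 for all genes. Both lactate dehydrogenase genes were lower. Ldhb, the form stored by the egg, stood at 97.4 FPKM [82.9 to 104] and 4.00 FPKM [2.45 to 6.54] (-4.26). Ldha stood at 14.1 FPKM [7.48 to 29.4] and 0.5005 FPKM [0.0787 to 1.14] (-3.31). The pyruvate kinase gene Pkm differed by -3.33, the pyruvate dehydrogenase kinase gene Pdk1 by -2.73, Tpi1 by -2.68 and Gapdh by -2.65 (41.0 FPKM [39.6 to 67.1] and 7.07 FPKM [3.43 to 7.54]), which fell short of the rule under median ratio scaling. Pfkp and the pentose phosphate gene Taldo1 differed by 0.02 and -0.11 (0.33 and 0.74 under median ratio scaling), with overlapping libraries.

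Protein turnover and folding genes were called in both directions. Of 20 lysosomal genes 6 were higher and none lower (median 1.35; 11 under median ratio scaling). The granulin precursor gene Grn stood at 3.66 FPKM [2.05 to 6.40] and 160.2 FPKM [102 to 194] (5.02). The hexosaminidase subunit gene Hexa stood at 0.801 FPKM [0.288 to 2.33] and 16.4 FPKM [11.0 to 26.4] (3.28). Also higher were the protease genes Ctsd (3.11) and Ctsa (2.53) and Psap (2.66), which encodes the precursor of the saposins. The cathepsin L gene Ctsl stood at 523 FPKM [433 to 592] and 557 FPKM [302 to 732], with overlapping libraries. Proteasome genes had a median of 0.74 with 2 of 34 higher (10 under median ratio scaling), Psma7 (2.24) and Psmb3 (2.17). Of 26 heat shock and chaperone genes 3 were higher (11.5%, against 2.2% of all genes) and 4 lower (15.4%, against 14.8%). The share called lower was thus near that of all genes. Under median ratio scaling 8 were higher and none lower. The higher 3 encode cytosolic chaperones. Hspa8 stood at 151 FPKM [139 to 201] and 1516 FPKM [1081 to 2008] (3.19). Dnaja1 stood at 26.2 FPKM [17.5 to 46.4] and 203 FPKM [174 to 240.3] (2.82), and Hsp90ab1 at 161 FPKM [121 to 199] and 1013 FPKM [764 to 1184] (2.57). The endoplasmic reticulum chaperone genes Hspa5, at 188 FPKM [157 to 237] and 36.8 FPKM [34.5 to 58.3] (-2.23), and Hsp90b1, at 51.1 FPKM [41.3 to 61.1] and 7.76 FPKM [6.06 to 18.9] (-2.36), were lower. So were the heat shock factor gene Hsf1 (-2.36) and the small heat shock protein gene Hspb1. All 4 lower genes fell short of the rule under median ratio scaling.

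**Figure D4:**
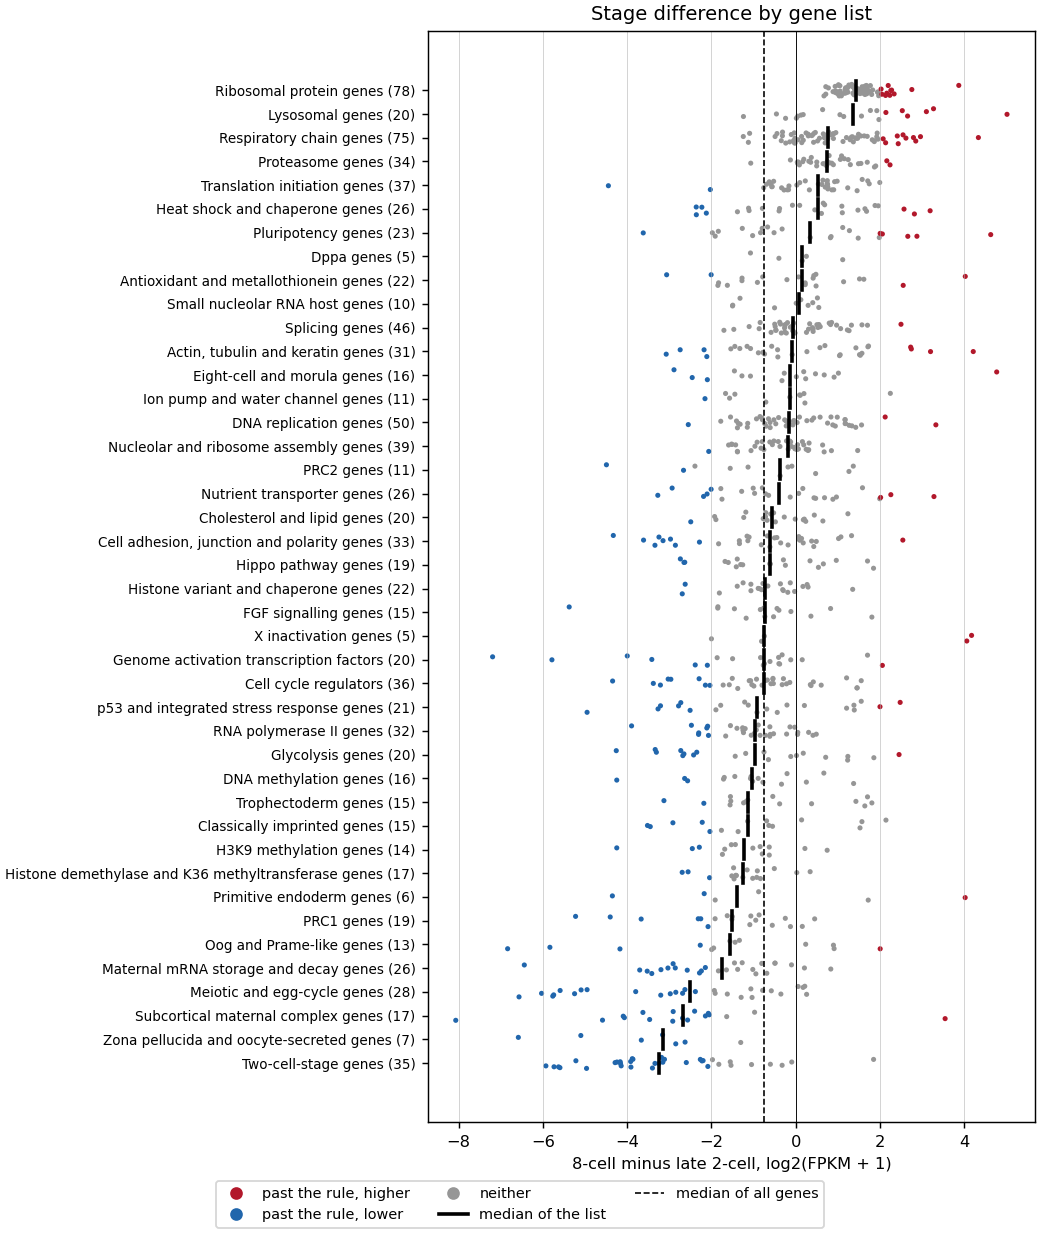
Points are the measured genes of each list (number in brackets), placed by their 8-cell minus late 2-cell difference on the log2 scale (x axis), red and blue where past the rule; the thick bar is the median of the list and the dashed line that of all genes (-0.75). Ribosomal protein genes have the highest median (1.43) and late 2-cell genes the lowest (-3.24).

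Pluripotency genes included 5 of 23 that were higher and 1 that was lower (median 0.35). Pou5f1, which encodes OCT4, stood at 6.40 FPKM [3.55 to 14.0] and 51.1 FPKM [29.9 to 73.9] (2.66). Nanog stood at 1.12 FPKM [0.657 to 1.81] and 16.2 FPKM [6.60 to 25.4] (2.88). Tdgf1, which encodes the NODAL co-receptor CRIPTO, went from 0.964 FPKM [0.107 to 2.41] to 52.4 FPKM [26.4 to 107] (4.63). Klf5 went from 13.2 FPKM [4.10 to 19.8] to 56.1 FPKM [36.4 to 74.5] (2.06), and Tfcp2l1 from 1.18 FPKM [0.599 to 1.57] to 7.32 FPKM [5.58 to 11.6] (2.01). L1td1, a gene derived from the LINE-1 retrotransposon, was lower (21.2 FPKM [14.4 to 28.6] and 0.762 FPKM [0.144 to 2.70]; -3.62). The maternal effect gene Dppa3 was abundant at both stages, at 2449 FPKM [1604 to 2931] and 2861 FPKM [1982 to 3373] (0.26).

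Among factors of the later lineages, Gata6, the primitive endoderm factor, went from 0.444 FPKM [0 to 0.841] to 20.5 FPKM [16.2 to 38.1] (4.03) and was the 1 higher gene of 6 in its list, which held 2 lower ones. Gata4 stood at 22.2 FPKM [13.9 to 26.1] and 4.65 FPKM [2.32 to 8.70] (-1.91), without overlap but short of the rule. No trophectoderm gene of 15 was higher and 2 were lower (3 higher and 1 lower under median ratio scaling). Tead4, the factor that pairs with YAP to start this lineage, stood at 10.3 FPKM [5.41 to 14.3] and 37.6 FPKM [25.1 to 44.7] (1.71; 2.50 under median ratio scaling). The FGF receptor gene Fgfr2 stood at 0.820 FPKM [0.499 to 1.30] and 4.83 FPKM [4.40 to 8.50] (1.81). Both were clear of overlap but short of the rule. The lower genes were the tetraspanin gene Tspan8 (-2.18) and Id2, at 14.7 FPKM [12.4 to 53.8] and 0.917 FPKM [0.450 to 3.13] (-3.13). Neither passed in the WT libraries alone, which gave 1 higher and no lower gene of this list. Gata3 stood at 0.531 FPKM [0.343 to 2.01] and 1.08 FPKM [0.923 to 2.15], and the keratin gene Krt8 at 0.147 FPKM [0 to 0.569] and 2.68 FPKM [0.441 to 4.32] (1.43), both with overlapping libraries. Cdx2, Krt18, Sox2 and Sox17 were not in both tables and are not analysed here. Of the FGF pathway 1 of 15 was lower, the feedback inhibitor Spry4, at 68.6 FPKM [44.1 to 87.8] and no more than 1.47 FPKM (-5.38). The ligand gene Fgf4 stood at 14.7 FPKM [11.0 to 25.0] and 4.39 FPKM [0.793 to 7.84] (-1.85), without overlap but short of the rule.

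Genes of adhesion, junctions and polarity, which compaction draws on, included 8 of 33 that were lower (24.2%, against 14.8% of all genes) and 1 that was higher, the claudin gene Cldn7 (7 and 1 under median ratio scaling; median -0.61). Cdh1, which encodes E-cadherin, the adhesion molecule of compaction, stood at 5.32 FPKM [4.34 to 10.5] and 13.5 FPKM [9.62 to 17.3] (1.08); the stages overlapped through 1 late 2-cell library, mKO replicate 1, at 10.5 FPKM. The polarity gene Pard3 was lower, at 25.9 FPKM [22.7 to 42.5] and 0.410 FPKM [0.247 to 0.598] (-4.33), as was Mark2, at 58.7 FPKM [34.8 to 90.0] and 3.92 FPKM [2.30 to 5.31] (-3.61). The adhesion gene Epcam stood at 85.0 FPKM [66.2 to 106] and 9.49 FPKM [5.99 to 17.8] (-2.97). The ezrin-related gene Rdx differed by -3.15. In the Hippo pathway, which reads polarity, 3 of 19 genes were lower and none higher (1 and 2 under median ratio scaling). The share called lower (15.8%) was near the 14.8% of all genes, and the median (-0.61) was near that of all genes (-0.75). Yap1 stood at 39.3 FPKM [30.3 to 58.5] and 5.01 FPKM [4.05 to 6.53] (-2.74). The MST2 kinase gene Stk3 stood at 12.8 FPKM [9.14 to 17.1] and 1.13 FPKM [0.402 to 2.51] (-2.65). Both fell short of the rule under median ratio scaling. Limd1 was also lower (-2.63), and the YAP target gene Cyr61 stood at 0.246 FPKM [0 to 0.496] and 3.51 FPKM [1.46 to 6.18] (1.85). Of 31 cytoskeletal genes 4 were higher and 4 lower (9 and 2 under median ratio scaling). The tropomyosin gene Tpm4 was higher, at 0.643 FPKM [0.380 to 0.851] and 27.9 FPKM [18.6 to 56.4] (4.22), as was Tpm1 (3.20). The beta-actin gene Actb went from 53.0 FPKM [42.4 to 95.7] to 388 FPKM [267 to 547] (2.75). The tubulin gene Tubb2a was lower, at 14.5 FPKM [11.2 to 21.4] and 0.721 FPKM [0.486 to 1.56] (-3.07), as was Tubb3 (-2.74).

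Transport, redox and splicing genes added single large differences to lists with few calls. Of 26 nutrient transporter genes 3 were higher and 5 lower (5 and 2 under median ratio scaling). Slc25a5, which exchanges ADP and ATP across the inner mitochondrial membrane, went from 85.6 FPKM [76.8 to 105] to 477 FPKM [257 to 556] (2.26). Slc34a2, a sodium and phosphate cotransporter gene, went from 134 FPKM [106 to 161] to 10.5 FPKM [9.07 to 22.4] (-3.27). Of 22 antioxidant genes 2 were higher and 2 lower (5 and 1 under median ratio scaling). Thioredoxin (Txn1) stood at 8.87 FPKM [7.71 to 15.1] and 65.4 FPKM [42.4 to 85.4] (2.56), and the peroxiredoxin gene Prdx2 at 245 FPKM [104 to 447] and 26.1 FPKM [14.1 to 59.1] (-3.06). Of 46 splicing genes 1 was higher and none lower (6 and none under median ratio scaling), the SR protein gene Srsf3, at 22.9 FPKM [21.2 to 35.4] and 139 FPKM [123 to 175] (2.50). The list of 8-cell and morula genes had 1 of 16 higher, Sfn, and 3 lower, Klf17, the homeobox gene Hesx1 (-2.89) and the uridine phosphorylase gene Upp1 (4.37 FPKM [3.25 to 15.9] and 0.320 FPKM [0.0383 to 0.489]; -2.45). Among the remaining lists, 1 of 11 ion pump and water channel genes was lower (Aqp11, -2.15), as was 1 of 20 cholesterol and lipid genes (Insig1, -2.49). Klf17, Hesx1, Upp1, Aqp11 and Insig1 fell short of the rule under median ratio scaling, Hesx1 because its libraries then overlapped, and Upp1 and Aqp11 did not pass in WT alone. Neither of the last lists had a higher gene, and none of 5 Dppa genes, 10 small nucleolar RNA host genes and 4 Y-linked genes was called.

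Chromatin genes were described in 6 lists, with no gene called higher at equal totals, where 2.2% of all genes were. Apart from the PRC1 list, the shares called lower (9.09 to 21.4%) lay near the 14.8% of all genes. Of 19 PRC1 genes 6 (31.6%) were lower and none higher (3 under median ratio scaling; median -1.50). Bmi1, a ring finger subunit, went from 159.7 FPKM [130.4 to 212] to 3.44 FPKM [2.06 to 5.06] (-5.22). Phc2 went from 36.1 FPKM [1.83 to 42.8] to 0.0924 FPKM [0.0538 to 0.147] (-4.40), and the chromodomain gene Cbx2 from 12.9 FPKM [8.53 to 17.7] to 0.0926 FPKM [0 to 0.268] (-3.67). In PRC2, the complex that Ezhip inhibits, 2 of 11 genes were lower and none higher (1 and 2 under median ratio scaling). The catalytic subunit gene Ezh2 stood at 48.0 FPKM [33.4 to 52.7] and 39.6 FPKM [28.1 to 51.0] (-0.18; 0.66 under median ratio scaling) and Eed at 33.3 FPKM [27.0 to 38.4] and 44.5 FPKM [38.0 to 59.9] (0.48). Both had overlapping libraries. Ezh1 was lower, at 13.2 FPKM [11.2 to 20.2] and 1.34 FPKM [0.729 to 2.34] (-2.66). The accessory gene Phf1 was lower too, at 33.0 FPKM [23.3 to 52.2] and 0.388 FPKM [0.1002 to 1.02] (-4.49). The accessory subunits of the other form of the complex, Jarid2 and Aebp2, differed by 1.37 and 1.27, without overlap, and passed the rule only under median ratio scaling (2.13 and 2.07), which left Ezh1 short of it (-1.98). Zfp57, which protects imprints from demethylation, went from 145 FPKM [96.0 to 182] to 7.25 FPKM [3.505 to 8.57] (-4.25). The dioxygenase gene Tet3 went from 7.49 FPKM [6.71 to 9.27] to 0.472 FPKM [0.140 to 0.639] (-2.63), and the oocyte linker histone gene H1foo from 16.8 FPKM [9.09 to 21.9] to 1.01 FPKM [0.197 to 4.37] (-2.98). Zfp57, Tet3 and Uhrf1 were the 3 lower genes of 16 DNA methylation genes. Uhrf1, like Asf1b, fell short under median ratio scaling. Of 22 histone variant and chaperone genes 2 were lower, Asf1b (-2.69) and Hist1h2ba (-2.62), and of 17 genes of histone demethylation and lysine 36 methylation 3 were lower (none under median ratio scaling). Of 14 H3K9 methylation genes 3 were lower, Zfp57 and the methyltransferase genes Suv39h1 (-2.45) and Suv39h2 (-2.29), of which the latter 2 fell short under median ratio scaling. Of 50 DNA replication genes 2 were higher, Tyms (4.42 FPKM [2.32 to 6.16] and 50.2 FPKM [40.3 to 69.3]; 3.33) and Rfc4 (2.13), and 1 was lower, Gins2 (-2.55; 5 and none under median ratio scaling), and their median was -0.16 (0.63 under median ratio scaling). Of 36 cell cycle regulators 8 were lower (22.2%, against 14.8% of all genes) and none higher (5 and 3 under median ratio scaling). The median of the list was that of all genes (-0.75). E2f5 at -4.34, Cdc25c at -3.21, Rb1 at -3.03 and E2f1 at -2.96 were among the lower ones. The p53 inhibitor gene Mdm4 stood at 283 FPKM [247 to 459.6] and 8.28 FPKM [7.21 to 12.0] (-4.95). Of the p53 and stress response genes, 6 of 21 (28.6%) were lower and 2 (9.52%) higher, the serine and asparagine synthesis genes Phgdh and Asns (4 and 5 under median ratio scaling).

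Female mouse embryos first inactivate the paternal X chromosome, during cleavage. Xist, the RNA that coats the X chromosome, was at 0.258 FPKM [0.0228 to 0.521] in late 2-cell and 21.2 FPKM [3.58 to 70.0] in 8-cell libraries (4.06). Its antisense partner Tsix was at 0.694 FPKM [0.189 to 1.59] and 39.3 FPKM [6.33 to 84.8] (4.18). Without strand, reads of Xist and Tsix cannot be told apart. They were the 2 of 5 X inactivation genes called, and Xist was the 1 called of 3 genes imprinted through H3K27me3. The lowest 8-cell library in Xist, mKO replicate 2, had the highest sum of 7 Y-linked genes, 34.5 FPKM against 3.05 to 17.1 in the other 5. The 366 X-linked genes kept had a median difference of -0.77 and the 10432 autosomal genes one of -0.74. Of the X-linked genes 11 (3.01%) were higher and 47 (12.8%) lower, against 2.17% and 14.9% of autosomal genes. Of 15 classically imprinted genes 5 were lower and none higher (3 and 3 under median ratio scaling), among them Mest (13.8 FPKM [6.00 to 16.1] and 0.163 FPKM [0.116 to 0.245]; -3.45). Usp29 was another (22.0 FPKM [14.6 to 32.3] and 0.659 FPKM [0.453 to 4.12]; -3.52). Igf2r stood at 12.2 FPKM [10.3 to 15.0] and 13.9 FPKM [11.4 to 16.3], with overlapping libraries.

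Genotype was measured within each table, with limma on log2(FPKM + 1) and p-values adjusted by Benjamini and Hochberg over all genes tested. Ezhip itself, AU022751 in the tables, stood, at the late 2-cell stage, at 21.4 and 19.3 FPKM in WT libraries. The mHet libraries had 7.97 and 11.2 FPKM and the mKO libraries 0 and 0.707, in the order of the labels. At the 8-cell stage no library exceeded 1.31 FPKM, so there it checks no label. It was the only gene of 10344 (0.00967%) to differ between mKO and WT at the late 2-cell stage (log2 difference -3.76, SE 0.38, limma adjusted p = 0.0110), and the call ended without WT replicate 1 or 2 or mKO replicate 1 (0 genes). In 8-cell embryos 2 of 8354 genes (0.0239%) were lower in mKO, the Golgi gene Casc4 (-2.55, SE 0.32) and the sorting nexin gene Snx10 (-2.38, SE 0.32), each with a limma adjusted p of 0.0412. Casc4 stood at 8.10 and 5.26 FPKM in the WT, 1.12 in the mHet and 0.513, 0.374 and 0.439 in the mKO 8-cell libraries, and Snx10 at 7.21 and 9.37, 3.94, and 0.927, 0.734 and 1.10. Under median ratio scaling, or without either WT library or mKO replicate 1 or 2, neither passed (0 genes called). The labels do not tie libraries to animals, and the p-values cover the spread of these samples alone, part of which may be technical. The mKO effect differed between the stages in 0 of 10829 genes by limma at an adjusted p under 0.05 (0.0%), with 640 at an unadjusted p under 0.05. On simulated data with 2 to 3 libraries a group, changes of 1, 2 and 4 on the log2 scale were placed among 10829 genes. The limma fit of this difference recovered 1.49%, 40.3% and 86.4% of them, so differences of up to 2 would mostly be missed. With such changes placed within 1 table, the late 2-cell fit recovered 4.48%, 58.2% and 90.9%. The 8-cell fit recovered 10.4%, 74.6% and 98.5%. Changes of 1 within a table would thus mostly be missed, and the genes called there are not a count of all that differ. Only genes with a mean log2(FPKM + 1) of at least 2 were changed, and the recovery of lower genes was not measured.

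Stage differences were also set side by side in WT and mKO embryos. All 1846 called genes had the same sign in the WT as in the mKO libraries. The rule fixes this, since it allows no overlap between the pooled libraries of the stages, and it is no measure of agreement between genotypes. Of the called genes, 1684 passed the rule in the mKO libraries alone (19.6% of all genes did) and 1523 in both WT and mKO. The correlation of the WT and mKO differences across all genes was 0.921 (genes are not independent replicates). At the late 2-cell stage both mKO libraries lay above both WT libraries in 25 of the 35 late 2-cell genes, against 14.7% of all genes. The median mKO minus WT difference was 0.69 against -0.03 for all genes. This was not particular to the list, as 8 of 10 small nucleolar RNA host genes lay so too (median 0.57). The 35 genes include near-identical copies, were read in the same 2 WT and 2 mKO libraries and are not independent replicates. Zfp352 stood at 52.5 and 62.8 FPKM in WT, at 46.1 and 36.4 in mHet and at 114 and 155 in mKO libraries of that stage. By limma none of the 35 passed (lowest adjusted p = 0.193; 17 were higher and none lower at an unadjusted p under 0.05). By the 8-cell stage 13 of these genes were still high enough to test, with a median mKO minus WT difference of 0.06 and 1 of 13 above all WT libraries (7.34% of all genes).

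**Figure D5:**
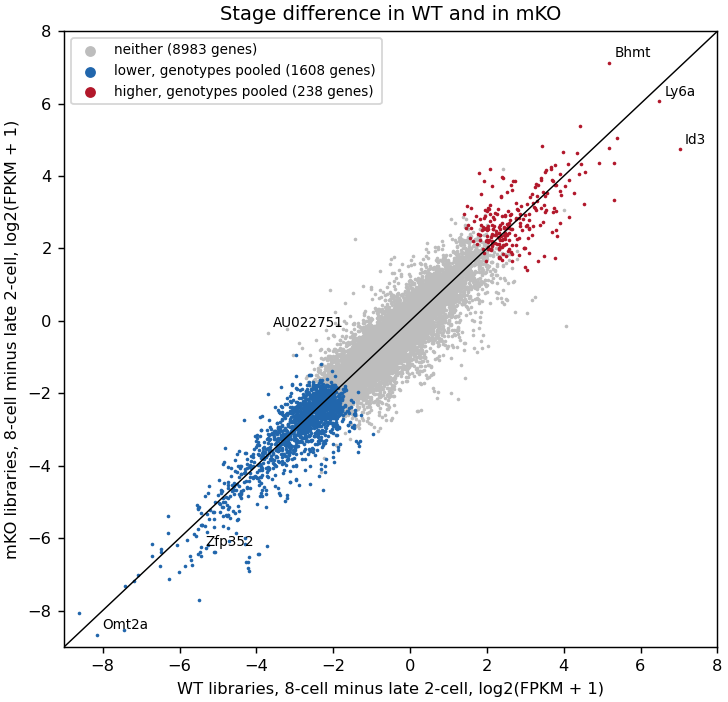
Each point is 1 of 10829 genes, with the 8-cell minus late 2-cell difference in log2(FPKM + 1) of the WT libraries on the x axis and of the mKO libraries on the y axis; the line marks equality and colours mark the pooled calls. The 1846 called genes lie in the lower left and upper right quadrants, as the rule that chose them requires. Ezhip (AU022751) lies off the line, with almost none of it in mKO embryos at the late 2-cell stage.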

How the data were processed

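The deposited tables gave FPKM per gene and library, made by the authors from Smart-seq2 libraries of polyadenylated RNA, per the labels' protocols. The submitters' processing notes list HTSeq 0.6.0, HISAT2 2.2.1 and Trim Galore 0.4.2, and as builds hg19 and mm9, with no role for any. How FPKM were computed, with which annotation, and how multi-mapping reads and strand were handled is not given in these sources. The summed FPKM of a library ran from 216176 to 267362 in the late 2-cell and from 326500 to 410255 in the 8-cell table, and Rn45s took 1.53 to 6.03% of it. Low values shared no step worth 1 read (at most 0.717% of genes), so depth is unknown and no counting interval is given.

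Genes named in both tables were matched by symbol, Rn45s was removed and each library was rescaled to a total of 292587 FPKM. Genes at 1 FPKM or more in 2 of 12 libraries were kept, and log2(FPKM + 1) was used. A gene was called at a difference of 2 or more without overlap of the libraries, with no test across tables. Within tables, group means were fitted with limma 3.58.1 (R 4.3.3; lmFit, eBayes with a trend), two-sided, with Benjamini-Hochberg adjustment at 0.05. Python 3.11.15, numpy 2.4.6 and pandas 2.3.3 did the rest. Both procedures were tested on simulated data.

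The text names a selection of 358 genes. The rule took 15 genes and 5 predicted or clone-named models with the largest difference in each direction, of each of 44 gene lists up to 6 members with the largest and the 2 with the smallest absolute difference, a fixed set of stage markers, and genes called by limma. Hba-a1, Hba-a2, Amhr2, Tnfaip6, Fgf3, Pdha1, Cldn7, Phgdh, Asns and Hspb1 were named after their values were seen. The members and lists were chosen with earlier results of these data known. Alternatives were a pseudocount of 0.1, the values as deposited, median ratio scaling, a size of 1 or 3, no overlap rule, WT or mKO alone, each library left out and the replicate block. All 3 scalings together, a stage mean of 10 FPKM or more, the E3.5 tables and the set of 8-cell library numbers were chosen after seeing the data. Promoters are from RefSeq (GRCm38.p6), a build other than the mm9 named for the files, so they were joined by symbol alone.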

Additional observations from a re-analysis of the deposited data

Results flagged for a closer look

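In 10 of 108 measures of a stage, 1 of the 6 libraries lay farther from the others than Dixon's 95% critical ratio allows; chance gives about 1 in 20. Of the genes higher at the 8-cell stage, Ly6a was 57.0 FPKM in 8-cell mKO replicate 2 against 114 to 142 in the others. Sfn was 26.1 FPKM in late 2-cell mKO replicate 1 against 3.89 to 11.0, and Ckmt1 0.594 FPKM in late 2-cell mKO replicate 2 against 0 to 0.1996. Of the genes lower at the 8-cell stage, Omt2a was 6.07 FPKM in 8-cell mKO replicate 3 against 1.93 to 3.09, Oog1 4.48 in 8-cell WT replicate 1 against 1.95 to 2.34 and Zscan4c 0.5258 in 8-cell mKO replicate 1 against 0 to 0.0962. Obox6 was 718 FPKM in late 2-cell mKO replicate 2 against 425.4 to 532, and the histone variant gene H2afz 669 in the same library against 461 to 522. Cdh1 was 10.5 FPKM in late 2-cell mKO replicate 1 against 4.34 to 6.27. AU022751 (Ezhip) was 1.31 FPKM in 8-cell WT replicate 1 against 0 to 0.351.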

How the results depend on the processing

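No sign of a called value reversed under the alternatives run. For stage calls in a part of the libraries, the rule on overlap fixes this. Of the 192 named genes past the rule, 42 fell short of it under median ratio scaling, 32 with the values as deposited, 12 in mKO libraries alone and 12 when 1 library was left out. The pooled counts of higher and lower genes (238 and 1608) became 546 and 917 with the values as deposited, 675 and 759 under median ratio scaling, 420 and 3168 with a pseudocount of 0.1, 848 and 4097 at a log2 size of 1, and 60 and 487 at a size of 3. Under all 3 scalings 759 genes were lower. They were 227 to 261 and 1527 to 1684 with 1 library left out. The 8-cell libraries carry the unbroken numbers 20 to 25, which no label divides into batches; with 20 to 23 alone the counts were 226 and 1637, and with 24 and 25 alone 313 and 1655. In WT alone the counts (287 and 1715) became 638 and 955 as deposited, 752 and 802 under median ratio scaling, 547 and 3455 with a pseudocount of 0.1, 1099 and 4464 at a size of 1 and 82 and 521 at a size of 3, and 253 to 375 and 1670 to 1888 with 1 library left out. Part of each change follows from the construction of the alternative; other causes were not tested.

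For mKO against WT by limma (adjusted p under 0.05), the late 2-cell table gave 0 genes with a pseudocount of 0.1 (679 at an unadjusted p under 0.05) and 0 without the filter (1049), and 0 to 1 with 1 library left out. The 8-cell table gave 1 as deposited, 0 under median ratio scaling (381 at an unadjusted p under 0.05), 0 with a pseudocount of 0.1 (360), 3 with this division of the library numbers as a term, and 0 to 3 with 1 library left out. The difference between the stages gave 0 to 4 with 1 library left out: 1 without late 2-cell WT replicate 2 and 4 without late 2-cell mKO replicate 2. A group left with 1 library was assumed to vary like the others. With the replicate block, 15 genes were called at the late 2-cell stage, 75 at the 8-cell stage and 0 for the difference (1024 at an unadjusted p under 0.05). Same-numbered WT and mKO libraries deviated from their group means with correlations across genes of 0.197 at the late 2-cell stage and 0.280 and -0.163 at the 8-cell stage, so the numbers were not taken to pair the libraries. Depth is unknown, and low values are the least certain.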
